A study of Homo sapiens with 16 samples.

Results

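Untreated and gemcitabine-treated BxPC3 cells were compared over 12215 genes, those of 58735 in the deposited table that reached 1 FPKM (fragments per kilobase of transcript, scaled for each library) in at least 4 of 8 libraries. BxPC3 is an established line of human pancreatic ductal adenocarcinoma, known for mutant p53 and loss of SMAD4. Gemcitabine is a deoxycytidine analogue given for this cancer; once phosphorylated, it halts DNA synthesis. The study sequenced poly-A-enriched RNA of BxPC3 and of PANC-1, the PANC-1 libraries being not used here. In BxPC3 the 2 groups were untreated control cells and cells given gemcitabine alone, with 4 libraries each. Dose and time of treatment are not stated in the labels, and the cells are 1 tumour line in culture, with no stroma or immune cells. Nothing states that each replicate was its own culture. The p-values thus rest on differences among libraries that may be technical repeats.

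Surface receptors set which outside signals a cell can read, secreted proteins act on its neighbours and its matrix, and transcription factors and metabolic enzymes set its state from within. Ductal tumour cells are known to display antigens such as mesothelin, to secrete mucins, trefoil peptides and chemokines that draw neutrophils, and to lean on glucose, glutamine and the lysosome for fuel. Long non-coding RNAs are made in the same nuclei, some as hosts of small RNAs.

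The labels were checked first. SMAD4, which the line is known to lack, had 0 reads in the 8 libraries, and all 9 ductal markers (keratins, EPCAM, CDH1 and others) reached 1 FPKM, with a summed level of 4267 to 4905 FPKM in controls and 3676 to 4200 FPKM with gemcitabine. Of 6 acinar markers 1 reached 1 FPKM, of 7 fibroblast markers 2, of 4 endothelial markers 1 and of 6 leukocyte markers 1. The libraries held 28074125 to 37777222 reads in controls and 29975612 to 34305420 with gemcitabine, and 3 reads on 1 kb of transcript equal 0.0803 to 0.107 FPKM. Control replicate 2 stood apart from the other 3 controls: its median deviation from their mean was 0.142 (log2) in the quartile of shortest genes and -0.0747 in that of the longest. The next largest was gemcitabine replicate 4, at 0.0962 and -0.0512 from the mean of the other gemcitabine libraries. Without control replicate 2, 4676 genes were higher and 4441 lower, and no gene named here changed its call.

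Of the 12215 genes tested with limma on log2(FPKM + 1), gemcitabine raised 4556 (37.3%) and lowered 4408 (36.1%), called at adjusted p-values below 0.05. Both directions together make 8964 genes (73.4%), so that most genes passed and a list is read against these shares. At a log2 change of at least 1 in size, 538 genes were higher (4.40%) and 491 lower (4.02%). The groups did not overlap in 67.5% of genes, with all 4 gemcitabine libraries above all controls in 34.3% and below them in 33.2%. The log2(FPKM + 1) scale understates the change of genes near 1 FPKM, and 613 tested genes reached 1 FPKM in all 4 libraries of 1 group and in none of the other, so that passing the filter fixed their direction. They include each gene named below with 1 group wholly under 1 FPKM and the other wholly above it. Genes that reached 1 FPKM in exactly 4 libraries numbered 708 with a median of mean levels of 1.08 FPKM, and just outside the limit stood 264 genes with exactly 3 libraries and a median of 0.870 FPKM. In bulk RNA, fewer cells of a kind and less RNA per cell cannot be told apart.

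**Figure D1:**
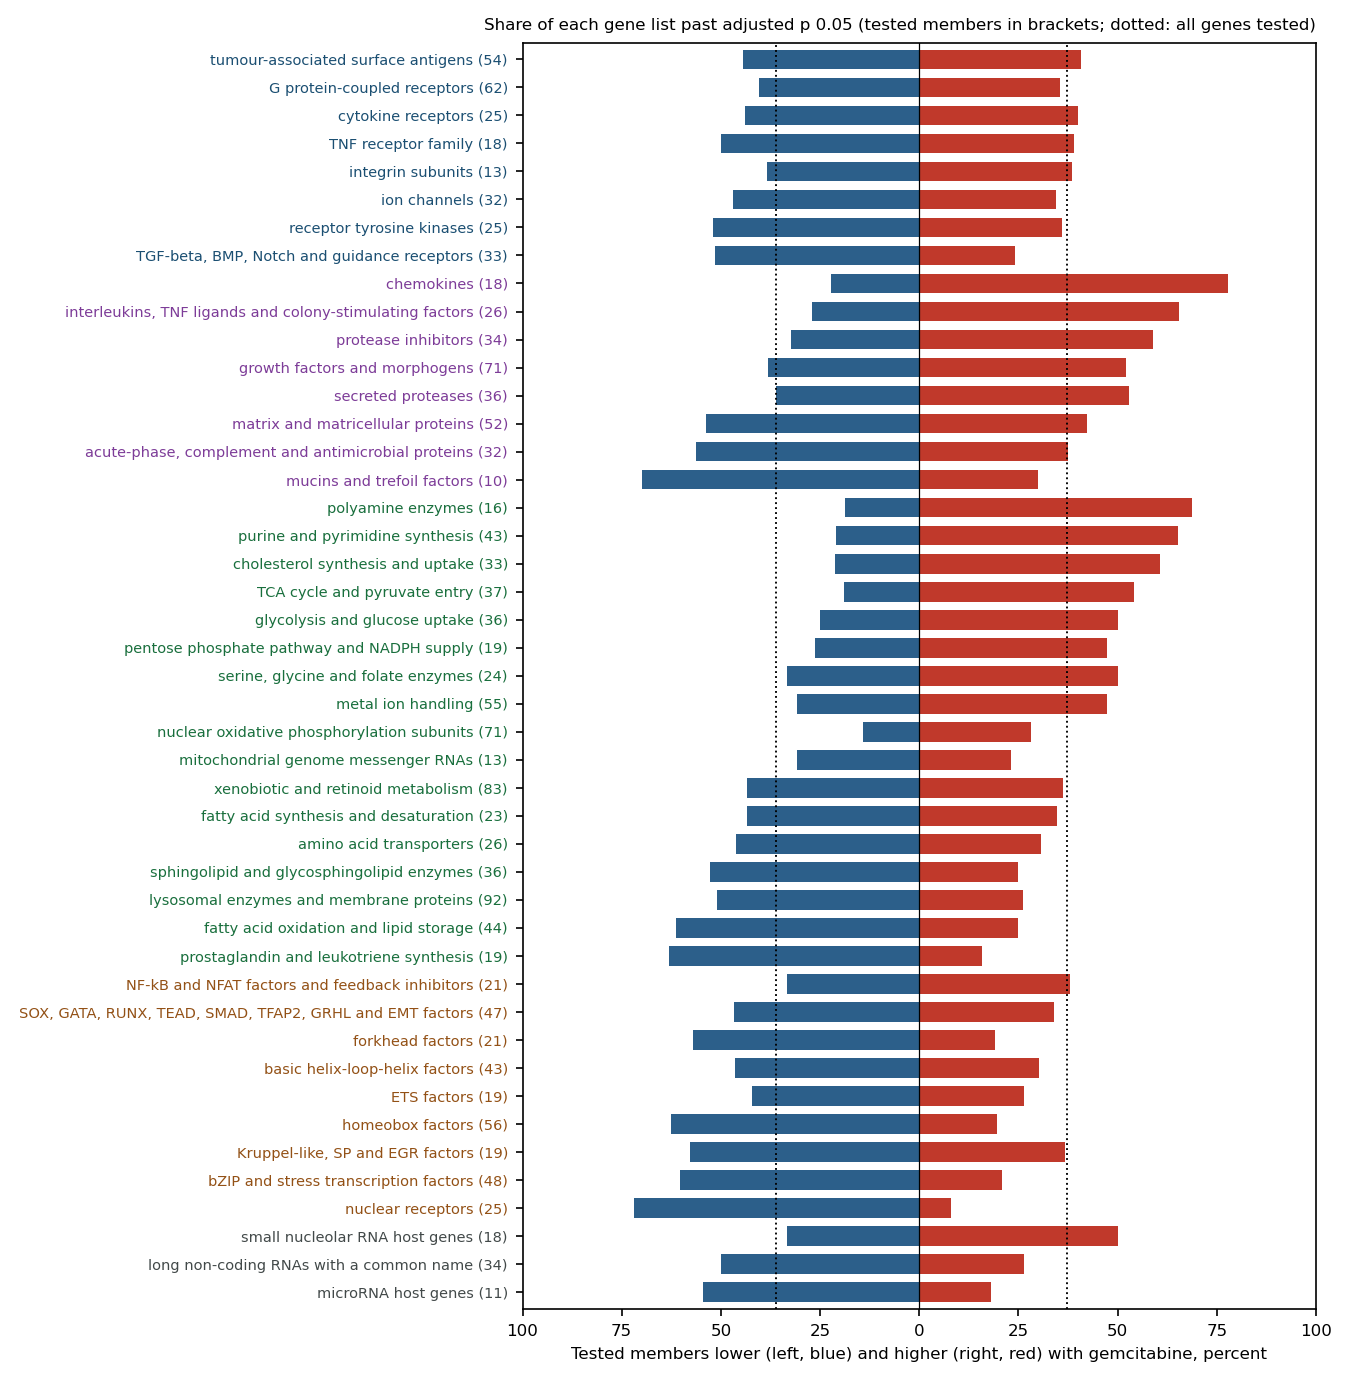
Share of each gene list past an adjusted p of 0.05 (limma), higher with gemcitabine to the right in red and lower to the left in blue, in percent of the tested members given in brackets; label colours part surface, secreted, metabolic, transcription factor and non-coding lists from top to bottom. Dotted lines mark all genes tested, 37.3% higher and 36.1% lower; chemokines reach furthest to the right, with 14 of 18 higher, and nuclear receptors furthest to the left, with 18 of 25 lower.

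Among surface genes falls outnumbered rises. The antigens BCAM and PSCA and the receptors ACKR3 and SSTR5 were among those that fell, and the IL-33 receptor gene IL1RL1 and the lipoprotein receptor LRP8 were among those that rose. Of 262 tested surface genes in 8 lists (471 listed), 94 were higher and 119 lower, or 35.9% and 45.4%. At a log2 change of at least 1 in size 16 were higher and 32 lower. The median log2 change of the class was -0.068. Under TPM scaling the list medians of cytokine receptors, TNF receptors, G protein-coupled receptors and integrins turned positive.

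Of 56 receptor tyrosine kinases 25 were tested, of which 9 were higher and 13 lower, with a median log2 change of -0.15 against 0.00443 over all genes. FGFR3, a receptor of fibroblast growth factors (ENSG00000068078, chromosome 4, 1793293 to 1808872, GRCh38 as all positions), stood at 126, 123, 127 and 126 FPKM in the controls and 18.1, 18.03, 19.5 and 17.6 FPKM with gemcitabine. The groups did not overlap, and it fell 6.85-fold (log2 change -2.71 ± 0.0382 SE, limma adjusted p = 3.6e-11). FGFR2, its close relative, fell 2.36-fold (from 14.5 ± 0.678 to 6.13 ± 0.1903 FPKM). ERBB2 and ERBB3, which pair to signal for neuregulins, fell together. ERBB2 had 24.3, 24.1, 24.5 and 24.1 FPKM in controls and 10.5, 10.96, 10.97 and 10.8 FPKM with gemcitabine, a fall of 2.24-fold. ERBB3, which has little kinase activity of its own, fell 2.52-fold (from 18.3 ± 1.201 to 7.25 ± 0.3202 FPKM). DDR1, a collagen receptor, fell 1.99-fold (from 103 ± 0.356 to 51.7 ± 1.41 FPKM). Rising members included EPHA2, the ephrin-A receptor tied to motility, with 113, 113, 113 and 115 FPKM in controls and 191, 198, 204 and 197 FPKM with gemcitabine. It rose 1.74-fold (limma adjusted p = 3.0e-08), and AXL, the receptor of GAS6, rose 1.71-fold (from 50.6 ± 2.23 to 86.6 ± 1.42 FPKM). EGFR and MET, both drivers of epithelial growth, did not pass. EGFR had 27.1, 20.3, 26.6 and 25.6 FPKM in controls and 30.5, 29.6, 25.2 and 23.9 FPKM with gemcitabine (log2 change 0.13 ± 0.103 SE, limma adjusted p = 0.28), and its groups overlapped. MET stood at 68.9 ± 4.73 and 71.6 ± 5.36 FPKM (limma adjusted p = 0.47).

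Receptors for cytokines were split: 10 of 25 tested were higher and 11 lower. IL1RL1 encodes ST2, the receptor of IL-33 (ENSG00000115602, chromosome 2, 102311502 to 102352037); it had 5.98, 6.06, 6.34 and 5.59 FPKM in controls and 33.99, 32.4, 30.6 and 31.5 FPKM with gemcitabine. All treated libraries lay far above the controls, a rise of 5.36-fold (log2 change 2.24 ± 0.0457 SE, limma adjusted p = 2.2e-10). IL7R, the receptor chain for IL-7 and TSLP, was near absent in controls, with 47 reads over the 4 libraries, and reached 4.43, 3.95, 3.85 and 3.96 FPKM with gemcitabine (3254 reads). IL20RA, a chain of the receptors for IL-20 family cytokines, fell 3.08-fold (from 19.5 ± 0.7296 to 6.33 ± 0.312 FPKM).

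In the TNF receptor family 7 of 18 tested members were higher and 9 lower. NGFR, the low-affinity receptor of neurotrophins, stood at 56.01, 55.8, 57.4 and 56.7 FPKM in controls and 10.6, 11.8, 12.3 and 11.1 FPKM with gemcitabine. No library of either group came near the other, and it fell 4.94-fold (log2 change -2.21 ± 0.0444 SE, limma adjusted p = 2.1e-10). TNFRSF14, which binds LIGHT and BTLA, fell 2.65-fold (from 27.8 ± 2.12 to 10.5 ± 0.487 FPKM), and TNFRSF18, known as GITR, fell 5.13-fold (from 5.503 ± 0.945 to 1.07 ± 0.142 FPKM); control replicate 2 was the highest control for both. TNFRSF12A, the receptor of TWEAK, rose 2.05-fold (from 161 ± 5.82 to 331 ± 15.1 FPKM).

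Of 62 tested G protein-coupled receptors (147 listed) 22 were higher and 25 lower, but at a log2 change of at least 1 in size 11 were lower and 4 higher. HCAR1, HCAR2 and HCAR3, the receptors of lactate, ketone bodies or niacin, and hydroxylated fatty acids, lie side by side on chromosome 12 (122701293 to 122730843) and all fell. HCAR2 had 24.7, 28.05, 26.2 and 24.7 FPKM in controls and 6.76, 7.76, 6.96 and 7.43 FPKM with gemcitabine, a fall of 3.59-fold. HCAR1 fell 2.505-fold (from 8.44 ± 0.318 to 3.37 ± 0.176 FPKM) and HCAR3 3.01-fold (from 4.31 ± 0.171 to 1.43 ± 0.124 FPKM); HCAR2 and HCAR3 are near-identical, which leaves their shares of the reads uncertain. ACKR3, the scavenger of CXCL12, fell 5.28-fold, from 15.1, 15.9, 13.8 and 14.96 FPKM in controls to 2.97, 3.07, 2.72 and 2.56 FPKM. The orphan receptor GPR37 fell 5.36-fold (from 8.603 ± 0.437 to 1.604 ± 0.2304 FPKM), and SSTR5, a receptor of somatostatin, fell 6.66-fold (from 4.76 ± 0.738 to 0.714 ± 0.1495 FPKM). FFAR2, a receptor of short-chain fatty acids, rose from 0.166, 0.121, 0.157 and 0.137 FPKM, or 41 reads in all controls, to 2.02, 1.94, 2.23 and 1.997 FPKM.

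Receptors of TGF-beta, BMP, Notch, WNT and guidance signals were more often lower, with 17 of 33 tested members lower, 8 higher and a median log2 change of -0.18. LRP5, a WNT co-receptor, fell 1.78-fold (from 116 ± 4.86 to 64.9 ± 1.52 FPKM), and LRP1, a broad endocytic receptor, fell 2.305-fold (from 11.1 ± 1.01 to 4.795 ± 0.436 FPKM). NRP1, a co-receptor of semaphorins and VEGF, rose 2.88-fold (from 1.897 ± 0.0834 to 5.46 ± 0.255 FPKM), and LRP8, a receptor of reelin, rose 6.42-fold (from 0.7995 ± 0.113 to 5.13 ± 0.116 FPKM).

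Tumour-associated surface antigens numbered 54 tested of 65, with 22 higher and 24 lower, and at a log2 change of at least 1 in size 4 higher and 8 lower. BCAM, the Lutheran antigen that binds laminin alpha 5 (ENSG00000187244, chromosome 19, 44809059 to 44821421), had 175, 194, 178 and 178 FPKM in controls and 24.3, 24.9, 25.4 and 24.2 FPKM with gemcitabine. Control replicate 2 was the highest, and without overlap of the groups BCAM fell 7.35-fold (log2 change -2.83 ± 0.0417 SE, limma adjusted p = 4.1e-11). MSLN, mesothelin, stood at 208, 238, 205 and 205 FPKM in controls and 52.7, 50.6, 56.03 and 54.3 FPKM with gemcitabine, a fall of 4.005-fold. PSCA, the prostate stem cell antigen that pancreatic tumours also carry, fell 5.904-fold (from 39.1 ± 3.24 to 6.62 ± 0.541 FPKM). The glypican GPC3 fell 5.76-fold (from 20.7 ± 1.53 to 3.59 ± 0.2696 FPKM), the tetraspanin TSPAN1 3.81-fold (from 338 ± 14.8 to 88.6 ± 5.89 FPKM) and LY6D, a GPI-anchored squamous antigen, 4.51-fold (from 101 ± 15.4 to 22.3 ± 2.32 FPKM). MICB, a ligand of the killer receptor NKG2D, rose 2.91-fold (from 2.97 ± 0.136 to 8.64 ± 0.918 FPKM). CD274, which encodes PD-L1, had 0.374, 0.4703, 0.418 and 0.587 FPKM in controls and 2.58, 1.93, 1.99 and 1.99 FPKM with gemcitabine, a rise of 4.59-fold. CDCP1, a substrate of SRC kinases, rose 2.12-fold (from 19.9 ± 1.796 to 42.3 ± 1.98 FPKM).

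Of 13 tested integrin subunits 5 were higher and 5 lower, or 2 lower under TPM scaling. ITGA5 and ITGB1 form the classical fibronectin receptor, and both rose along with fibronectin itself. ITGA5 had 6.21, 5.12, 6.17 and 6.08 FPKM in controls, lowest in replicate 2, and 19.4, 20.1, 18.4 and 18.8 FPKM with gemcitabine, a rise of 3.25-fold. ITGB1 rose 1.197-fold (from 120.5 ± 1.69 to 144 ± 3.66 FPKM). PLAUR, the urokinase receptor, rose 5.16-fold (from 8.58 ± 0.879 to 44.3 ± 2.89 FPKM). CDH5, the cadherin of endothelial junctions, rose 9.55-fold (from 0.603 ± 0.0524 to 5.76 ± 0.263 FPKM). It is the 1 endothelial marker of 4 that reached 1 FPKM, the other 3 staying below it. Of these, PECAM1 went the other way, with 0.632 to 0.857 FPKM in controls and 0.0846 to 0.187 FPKM with gemcitabine. VWF had 0.1307 to 0.1675 and 0.09295 to 0.132 FPKM, and KDR stayed under 0.01 FPKM. The summed level of the 4 was 1.38 to 1.61 FPKM in controls and 5.60 to 6.29 FPKM with gemcitabine. CDH5 alone made up this rise. Among 32 ion channels and water channels 11 were higher and 15 lower. AQP5, the water channel of secretory glands, fell from 34.6, 40.3, 35.05 and 36.8 FPKM in controls to 6.86, 6.103, 6.27 and 7.17 FPKM, a fall of 5.55-fold. AQP3, which also passes glycerol, fell 2.25-fold (from 1106 ± 21.1 to 491 ± 12.7 FPKM). TRPV4, a calcium channel opened by stretch, fell 3.87-fold (from 14.4 ± 0.215 to 3.71 ± 0.338 FPKM), whereas the chloride channel ANO1 rose 2.75-fold (from 16.4 ± 1.32 to 45.05 ± 2.44 FPKM).

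**Figure D2:**
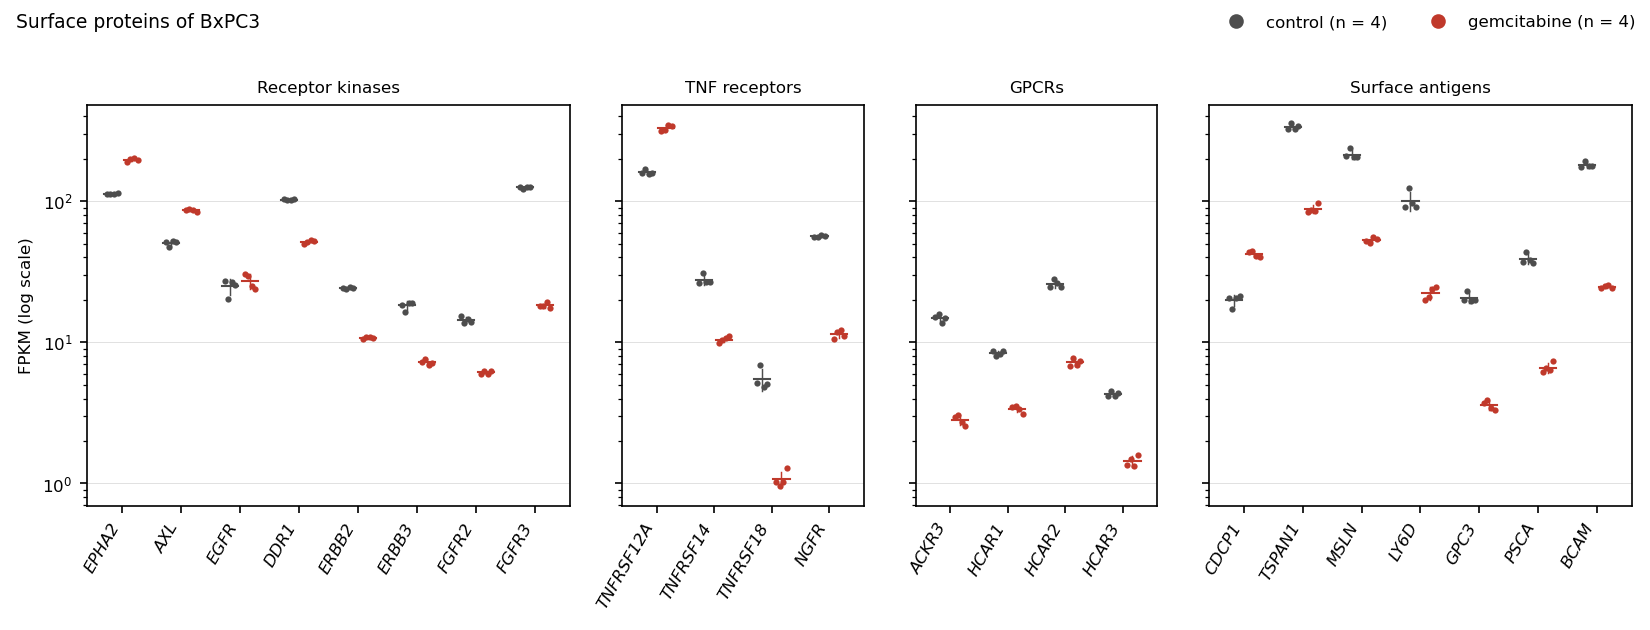
FPKM on a log axis of 23 surface genes in each of 4 control (grey) and 4 gemcitabine (red) BxPC3 libraries, with the mean as a line and SD as a vertical bar. The groups are apart in every gene shown except EGFR, whose libraries lie between 20.3 and 30.5 FPKM in both groups together; BCAM, PSCA and GPC3 show the widest falls among the antigens.

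Of the 4 protein classes described here, secreted proteins held the largest share of strong changes. Of 279 tested genes in 8 secreted lists (610 listed), 144 were higher (51.6%) and 115 lower (41.2%), and at a log2 change of at least 1 in size 77 were higher and 38 lower, or 27.6% and 13.6% of those tested against 4.40% and 4.02% of all genes. Chemokines held 12 of these strong rises, growth factors 19 and cytokines 10, and trefoil peptides, complement proteases and WNT ligands stood among the falls. Passing the filter fixed the direction of 37 of the 279 genes, beside 613 of all 12215. Growth factors held 10 of the 37 and matrix genes 8.

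Of 36 chemokines 18 were tested, with 14 higher and 4 lower and a median log2 change of 1.83. For 5 of the 18, passing the filter fixed the direction. The 7 tested ligands of the neutrophil receptor CXCR2 that cluster on chromosome 4 (73740506 to 74099293) were all higher. CXCL1 had 149, 170.5, 148 and 148 FPKM in controls and 304, 319, 329 and 348 FPKM with gemcitabine, and CXCL8 had 22.8, 24.99, 21.5 and 23.6 and 90.9, 85.8, 91.96 and 95.9 FPKM. No library of 1 group reached the other, with rises of 2.11-fold for CXCL1 and 3.92-fold for CXCL8. CXCL2 rose 3.42-fold (from 5.79 ± 0.165 to 19.8 ± 0.881 FPKM), CXCL3 4.603-fold (from 6.46 ± 0.151 to 29.7 ± 1.06 FPKM) and CXCL6 5.23-fold (from 1.24 ± 0.192 to 6.48 ± 0.321 FPKM). CXCL5 and PPBP had the largest rises of the cluster, 17.7-fold and 49.8-fold. CXCL1, CXCL2 and CXCL3 are close copies, so reads may be divided among them with error. Outside the cluster, CCL28, a mucosal chemokine that draws plasma cells (ENSG00000151882, chromosome 5, 43376645 to 43412391), had 4.12, 4.15, 4.13 and 4.01 FPKM in controls and 36.7, 36.5, 35.5 and 35.9 FPKM with gemcitabine. It rose 8.82-fold (log2 change 2.87 ± 0.0307 SE, limma adjusted p = 8.0e-12). CXCL17, another mucosal chemokine, fell 3.69-fold (from 76.6 ± 2.29 to 20.8 ± 1.502 FPKM).

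Since the cluster members rose together, the stretch of 250 bases before their RefSeq starts (GRCh38.p14) was searched on both strands for the kappa-B consensus, the site type known to bind NF-kB, allowing overlaps. The consensus was written GGGRNWYYCC, where R is A or G, N any base, W A or T, and Y C or T. Promoters of 10 of 11 chemokine genes were found in the table, and 5 held the consensus, each as the same 11 bases, which hold overlapping matches on the 2 strands. Of 35116 promoters 5.21% held at least 1 match and 0.635% at least 2. The 5 promoters fall into 2 groups of like sequence, so they are not 5 independent cases beside these shares. The windows of 61 bases around it are shown, 5′ to 3′ on the gene's strand with these 11 bases in capitals, because they show 2 sequence groups, CXCL1 to CXCL3 and CXCL5 with CXCL6, around 1 shared core.
CXCL1 (chr4:73869289-73869349, plus strand): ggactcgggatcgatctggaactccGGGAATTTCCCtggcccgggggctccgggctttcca
CXCL2 (chr4:74099238-74099298, minus strand): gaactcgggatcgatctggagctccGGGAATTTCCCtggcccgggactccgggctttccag
CXCL3 (chr4:74038733-74038793, minus strand): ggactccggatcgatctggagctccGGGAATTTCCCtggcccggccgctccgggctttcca
CXCL5 (chr4:73998733-73998793, minus strand): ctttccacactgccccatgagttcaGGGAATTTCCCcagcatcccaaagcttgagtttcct
CXCL6 (chr4:73836563-73836623, plus strand): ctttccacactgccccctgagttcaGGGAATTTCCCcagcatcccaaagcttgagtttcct
The core begins 78 to 79 bases before the start in CXCL1, CXCL2 and CXCL3 and 90 to 91 bases before it in CXCL5 and CXCL6. CXCL8, PPBP, CXCL14, CXCL17 and CCL28 had no full match to this consensus in the window. The CXCL8 window holds TGGAATTTCC, which departs from the consensus only in the first base. Near matches were not counted. These matches describe the letters only, and binding was not measured here. Of 21 tested NF-kB and NFAT factors and feedback inhibitors 8 were higher and 7 lower, with a median log2 change of 0.0118. Whether NF-kB took part in the chemokine rises was not tested.

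Of 58 interleukins, TNF ligands and colony-stimulating factors 26 were tested, with 17 higher, 7 lower and a median log2 change of 0.84. For 9 of the 26, passing the filter fixed the direction. IL36G, an epithelial alarm cytokine of the IL-1 family, stood at 0.466, 0.543, 0.4002 and 0.369 FPKM in controls and 8.95, 8.77, 8.35 and 9.31 FPKM with gemcitabine. Every treated library lay above 8 FPKM and every control below 1, a rise of 19.9-fold (log2 change 2.77 ± 0.0518 SE, limma adjusted p = 1.5e-10). IL36G thus passed the filter only through the treated group, which fixed its direction. CSF3, which drives neutrophil production, rose 9.92-fold (from 1.02 ± 0.129 to 10.1 ± 0.721 FPKM), and CSF2, or GM-CSF, went from 17 reads over 4 controls to 655 reads (4.82, 5.09, 7.63 and 7.68 FPKM). IL23A, the p19 chain of IL-23, rose 8.67-fold (from 1.55 ± 0.415 to 13.5 ± 0.664 FPKM), and LIF, a cytokine of the IL-6 family, rose 4.33-fold (from 8.42 ± 0.227 to 36.4 ± 0.534 FPKM).

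Growth factors and morphogens were tested for 71 of 177 genes, and 37 were higher and 27 lower, with 19 higher and 8 lower at a log2 change of at least 1 in size. EDN1, the precursor of the vasoconstrictor endothelin-1 (ENSG00000078401, chromosome 6, 12290363 to 12297194), had 1.18, 1.12, 1.51 and 1.49 FPKM in controls and 15.7, 15.6, 15.2 and 16.01 FPKM with gemcitabine. The treated libraries were closely grouped, and it rose 11.8-fold (log2 change 2.84 ± 0.0607 SE, limma adjusted p = 2.8e-10). DKK1, a secreted WNT inhibitor, had 10.2, 11.02, 10.1 and 10.3 FPKM in controls and 79.3, 78.5, 80.6 and 82.7 FPKM with gemcitabine, a rise of 7.71-fold. PTHLH, the parathyroid hormone-like peptide of tumours with high blood calcium, rose 7.26-fold (from 3.498 ± 0.419 to 25.4 ± 0.4804 FPKM). IGFL1, an IGF-like peptide of skin, rose 15.7-fold (from 2.05 ± 0.497 to 32.1 ± 1.74 FPKM). FST, which binds activins, and INHBA, the activin subunit, rose 3.56-fold and 8.61-fold (from 68.4 ± 4.31 to 243 ± 8.79 FPKM and from 0.404 ± 0.0373 to 3.48 ± 0.1399 FPKM). The IGF binding proteins parted: IGFBP6, which prefers IGF-2, rose 4.17-fold (from 110.2 ± 6.78 to 459.7 ± 49.2 FPKM), and IGFBP2 fell 4.81-fold (from 137 ± 15.7 to 28.4 ± 2.74 FPKM). WNT10A and WNT4, both WNT ligands, fell. WNT10A stood at 92.9, 97.5, 91.8 and 91.4 FPKM in controls and 22.9, 22.98, 23.8 and 24.3 FPKM with gemcitabine, a fall of 3.97-fold, and WNT4 fell 6.197-fold (from 14.02 ± 0.635 to 2.26 ± 0.202 FPKM). The heparin-binding factor MDK and the progranulin gene GRN, both high in controls, fell 1.94-fold (from 320.1 ± 23.7 to 165 ± 12.2 FPKM) and 2.21-fold (from 231 ± 9.71 to 105 ± 4.18 FPKM).

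Secreted proteases were tested for 36 of 86 genes, with 19 higher and 13 lower. F3, tissue factor, which starts blood clotting at the cell surface (ENSG00000117525, chromosome 1, 94529225 to 94541800), had 164, 171, 167 and 166 FPKM in controls and 616, 599, 596 and 612 FPKM with gemcitabine. Groups were well apart, and it rose 3.63-fold (log2 change 1.85 ± 0.0375 SE, limma adjusted p = 2.1e-10). MMP9, a gelatinase, rose 10.4-fold (from 1.09 ± 0.151 to 11.3 ± 1.64 FPKM), and ADAMTS1, which cuts versican and aggrecan, rose 7.23-fold (from 1.69 ± 0.0815 to 12.2 ± 0.523 FPKM). The trypsinogens PRSS1 and PRSS2 rose 7.74-fold (from 1.83 ± 0.234 to 14.1 ± 0.643 FPKM) and 14.9-fold (from 0.879 ± 0.244 to 13.1 ± 0.416 FPKM); they are near-identical, which leaves their shares of the reads uncertain. PRSS1 is the 1 acinar marker of 6 that reached 1 FPKM, with 1 other at 0 reads. The summed level of the 6 was 1.79 to 2.39 FPKM in controls and 13.7 to 15.1 FPKM with gemcitabine. No other acinar marker had more than 36 reads over the 8 libraries, so PRSS1 made up this rise. The kallikrein KLK11 fell 3.2-fold (from 26.2 ± 0.975 to 8.18 ± 0.482 FPKM), and MMP28, a metalloproteinase of epithelia, fell 2.45-fold (from 157 ± 6.72 to 63.99 ± 3.27 FPKM).

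Of 34 tested protease inhibitors 20 were higher and 11 lower, with a median log2 change of 0.43. PI3, or elafin, which blocks neutrophil elastase, had 379, 437, 381 and 408 FPKM in controls and 1143, 1235, 1282 and 1357 FPKM with gemcitabine, a rise of 3.12-fold. SPINK5, which blocks kallikreins in skin, fell 5.11-fold (from 16.4 ± 0.335 to 3.21 ± 0.182 FPKM). Among the clade B serpins next to each other on chromosome 18, 6 of 7 tested were higher, such as SERPINB7 (2.82-fold), SERPINB8 (2.09-fold) and the tumour suppressor maspin, SERPINB5 (1.56-fold). The other one, SERPINB3, a squamous cell carcinoma antigen with the close copy SERPINB4, fell 3.097-fold (from 17.3 ± 0.858 to 5.58 ± 0.48 FPKM). The salivary cystatins CST1, CST2 and CST4 rose 2.53-fold, 4.22-fold and 2.72-fold, with reads uncertain between these copies, while the ubiquitous cystatin C, CST3, at the same locus fell 1.65-fold (from 347 ± 34.9 to 210.1 ± 16.95 FPKM).

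Matrix and matricellular proteins were tested for 52 of 109 genes, with 22 higher, 28 lower and a median log2 change of -0.24. FN1, fibronectin (ENSG00000115414, chromosome 2, 215360440 to 215436172), was below 1 FPKM in every control (0.611, 0.528, 0.647 and 0.649 FPKM) and stood at 8.96, 8.79, 7.45 and 7.06 FPKM with gemcitabine. It rose 13.3-fold (log2 change 2.49 ± 0.0727 SE, limma adjusted p = 1.6e-09). Passing the filter fixed the direction of this change. NID2, a basement membrane linker, rose 5.64-fold (from 2.57 ± 0.244 to 14.5 ± 1.04 FPKM), and THBS1, an activator of latent TGF-beta, rose 4.06-fold (from 12.9 ± 0.425 to 52.3 ± 1.598 FPKM). On the other side, LOXL4, which cross-links collagen, had 59.6, 58.8, 60.2 and 59.3 FPKM in controls and 15.4, 14.6, 14.98 and 15.5 FPKM with gemcitabine, a fall of 3.93-fold. LTBP4, which stores latent TGF-beta, fell 2.86-fold (from 87.7 ± 3.18 to 30.7 ± 1.36 FPKM), and FBLN1, fibulin-1, fell 2.71-fold (from 48.7 ± 0.669 to 17.9 ± 0.5097 FPKM).

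Acute-phase, complement and antimicrobial genes were tested for 32 of 63, with 12 higher and 18 lower. SAA1, serum amyloid A, had 20.9, 22.4, 20.2 and 20.3 FPKM in controls and 148, 165, 175 and 188 FPKM with gemcitabine. It rose 8.07-fold, and its close copy SAA2 rose 6.29-fold (from 2.203 ± 0.0692 to 13.9 ± 0.752 FPKM), with reads uncertain between them. LGALS1, galectin-1, which was counted in the same list, rose 4.59-fold (from 27.1 ± 3.72 to 124 ± 10.1 FPKM). Of the complement proteases, CFD, factor D of the alternative pathway, had 75.8, 97.7, 76.2 and 75.5 FPKM in controls, highest in replicate 2, and 9.64, 10.2, 11.3 and 11.6 FPKM with gemcitabine, a fall of 7.62-fold. C1R, C1S and C1RL, the proteases of the classical pathway and their relative on chromosome 12, fell 3.41-fold (from 41.4 ± 0.642 to 12.1 ± 0.532 FPKM), 2.76-fold (from 24.8 ± 0.868 to 9.004 ± 0.265 FPKM) and 3.91-fold (from 18.1 ± 0.8197 to 4.63 ± 0.106 FPKM).

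Of 10 tested mucins and trefoil factors 3 were higher and 7 lower, with a median log2 change of -0.73. TFF1, TFF2 and TFF3, the trefoil peptides that protect mucosa, lie together on chromosome 21 (42311667 to 42366594) and all fell. TFF1 had 18.2, 23.4, 17.2 and 17.1 FPKM in controls and 5.05, 5.16, 5.18 and 5.62 FPKM with gemcitabine, a fall of 3.61-fold; TFF2 fell 4.199-fold (from 17.2 ± 1.67 to 4.103 ± 0.194 FPKM) and TFF3 3.15-fold (from 3.4 ± 0.467 to 1.08 ± 0.381 FPKM). Among genes of no list, MSMB, a secretory protein of mucosal glands, fell 33.8-fold, from 23.02, 30.1, 22.3 and 22.5 FPKM in controls to 0.995, 0.462, 0.667 and 0.771 FPKM with gemcitabine (1601 and 47 reads). UPK3B, a urothelial and mesothelial membrane protein, fell 5.64-fold (from 608 ± 40.4 to 108 ± 6.71 FPKM), and SNCG, the cytosolic protein gamma-synuclein, fell 7.14-fold (from 80.95 ± 7.35 to 11.3 ± 1.55 FPKM). AZGP1, a lipid-mobilising secreted protein, rose 24.8-fold (from 0.5202 ± 0.0516 to 12.9 ± 0.681 FPKM), and S100A7, psoriasin, an antimicrobial protein of inflamed skin, rose 11.2-fold (from 3.38 ± 0.699 to 37.7 ± 2.76 FPKM).

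**Figure D3:**
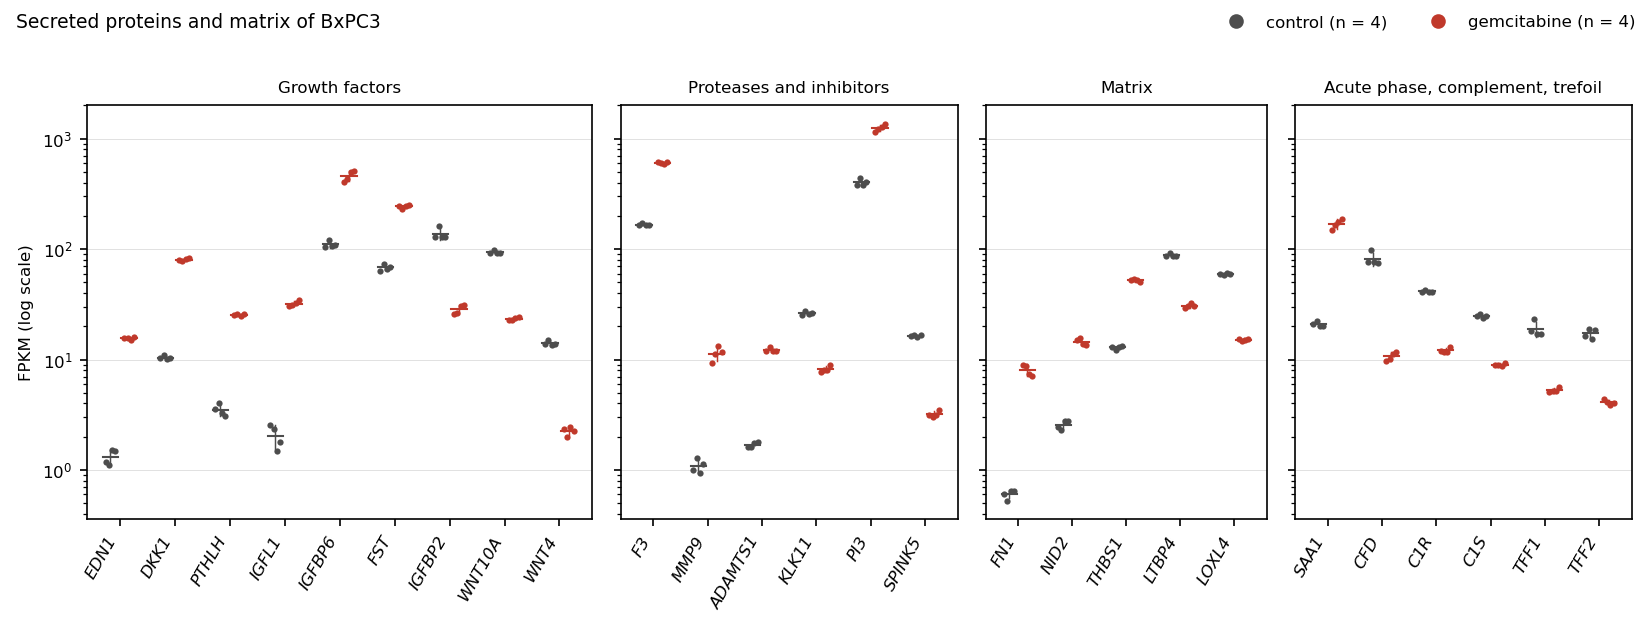
FPKM on a log axis of 26 secreted or matrix genes in 4 control (grey) and 4 gemcitabine (red) libraries, with the mean as a line and SD as a vertical bar. FN1 and EDN1 start near 1 FPKM and end near 10, PI3 and F3 are the highest after treatment, and the WNT ligands, complement proteases and trefoil factors shown lie below their controls in every library.

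Metabolic genes as a whole stood close to the shares of all genes: of 657 tested genes in 17 lists, 252 were higher (38.4%) and 239 lower (36.4%). Several single lists did not. Genes of nucleotide, polyamine and cholesterol synthesis were mostly higher. Genes of fatty acid oxidation (61.4% lower), prostaglandins (63.2%), sphingolipids (52.8%) and lysosomes (51.1%) were more often lower than higher.

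Of 36 tested genes of glycolysis and glucose uptake 18 were higher and 9 lower, with a median log2 change of 0.15. PKM, pyruvate kinase, rose 1.53-fold (from 352 ± 8.92 to 537 ± 22.8 FPKM). FBP1, which runs the step opposite to glycolysis, had 31.2, 33.9, 29.6 and 32.5 FPKM in controls and 5.66, 6.75, 6.64 and 7.604 FPKM with gemcitabine, a fall of 4.77-fold. TXNIP and ARRDC4, a pair of arrestins that restrain glucose uptake and answer to glucose, fell together. ARRDC4 had 22.3, 22.2, 22.1 and 22.7 FPKM in controls and 5.25, 4.21, 4.603 and 4.57 FPKM with gemcitabine, a fall of 4.79-fold, and TXNIP fell 10.1-fold over libraries that varied little (777, 806, 777 and 777 FPKM in controls, 77.9, 77.6, 76.5 and 77.7 FPKM with gemcitabine). In the pentose phosphate list 9 of 19 were higher and 5 lower. H6PD, which forms NADPH inside the endoplasmic reticulum (ENSG00000049239, chromosome 1, 9234775 to 9271337), had 29.8, 26.4, 29.6 and 29.1 FPKM in controls and 8.29, 8.73, 7.94 and 7.12 FPKM with gemcitabine, a fall of 3.58-fold (log2 change -1.72 ± 0.0609 SE, limma adjusted p = 5.7e-09), with the groups apart. TKT, transketolase, rose 1.68-fold (from 44.2 ± 0.8504 to 74.4 ± 1.46 FPKM).

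Of 37 genes of the TCA cycle and pyruvate entry 20 were higher and 7 lower, while of 71 nuclear subunits of oxidative phosphorylation 41 did not pass, 20 were higher and 10 lower. That last count depended on 1 library and on the scaling: 33 subunits were higher without control replicate 2 and 39 under TPM scaling. The 13 mRNAs of the mitochondrial genome were split, with 3 higher and 4 lower: MT-ND4 rose 1.197-fold (from 2416 ± 26.05 to 2892 ± 157 FPKM) and MT-ND3 fell 1.66-fold (from 1743 ± 145 to 1049 ± 80.9 FPKM), both subunits of complex I. Transporters of amino acids were lower for 12 and higher for 8 of 26. SLC1A5, the main glutamine importer, had 341, 359, 348 and 335 FPKM in controls and 153, 155, 160.3 and 165 FPKM with gemcitabine, a fall of 2.18-fold. GLUL, glutamine synthetase, fell too, 2.84-fold (from 169 ± 2.71 to 59.3 ± 0.267 FPKM), as did the glutamate and aspartate importer SLC1A3, 2.64-fold (from 41.4 ± 3.41 to 15.7 ± 1.005 FPKM).

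In purine and pyrimidine synthesis and salvage 28 of 43 genes were higher and 9 lower, with a median log2 change of 0.33. CTPS1, which makes CTP, had 3.91, 4.06, 3.83 and 3.98 FPKM in controls and 12.4, 11.9, 12.1 and 12.7 FPKM with gemcitabine, a rise of 3.11-fold. The salvage phosphorylases PNP and UPP1, which split purine nucleosides and uridine, rose 3.19-fold (from 7.32 ± 0.292 to 23.4 ± 1.21 FPKM) and 2.07-fold (from 17.5 ± 1.93 to 36.2 ± 3.25 FPKM). Of 16 polyamine genes 11 were higher and 3 lower: SRM, spermidine synthase, rose 2.22-fold (from 32.1 ± 1.43 to 71.3 ± 5.49 FPKM) and ARG2, the mitochondrial arginase, 3.98-fold (from 1.18 ± 0.341 to 4.72 ± 0.321 FPKM).

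In cholesterol synthesis and uptake 20 of 33 genes were higher and 7 lower. HMGCS1, which feeds the pathway, had 11.7, 11.7, 12.3 and 11.8 FPKM in controls and 33.6, 30.8, 30.7 and 30.2 FPKM with gemcitabine, a rise of 2.63-fold. SREBF1, the sterol-regulated transcription factor of fatty acid synthesis, fell 2.51-fold (from 144 ± 6.995 to 57.2 ± 2.402 FPKM), and SCD, the stearoyl-CoA desaturase, fell 2.11-fold (from 304 ± 21.1 to 144 ± 7.43 FPKM). In fatty acid oxidation and lipid storage 27 of 44 genes were lower and 11 higher, with a median log2 change of -0.19. CRAT, carnitine acetyltransferase, fell 3.21-fold (from 34.1 ± 1.03 to 10.6 ± 0.925 FPKM), whereas LIPG, a secreted lipase, rose 16.8-fold (from 0.424 ± 0.0372 to 7.14 ± 0.231 FPKM). In the prostaglandin and leukotriene list 12 of 19 genes were lower and 3 higher, with a median of -0.37. HPGD, which inactivates prostaglandins, fell 3.78-fold (from 8.49 ± 0.4397 to 2.24 ± 0.228 FPKM). AKR1B1, an aldose reductase that can also make prostaglandin F, rose 3.17-fold (from 24.2 ± 2.11 to 76.7 ± 4.62 FPKM).

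Of 83 genes of xenobiotic and retinoid metabolism 30 were higher and 36 lower. CYP1A1, the classical target of the aryl hydrocarbon receptor (ENSG00000140465, chromosome 15, 74719542 to 74725610), had 0.458, 0.554, 0.366 and 0.499 FPKM in controls and 11, 10.7, 10.3 and 11.6 FPKM with gemcitabine. The lowest treated library stood far above the highest control, and it rose 23.2-fold (log2 change 3.02 ± 0.0531 SE, limma adjusted p = 1.1e-10). All controls lay below 1 FPKM, so passing the filter fixed the direction of this rise. AHR, the receptor itself, fell 2.55-fold (from 32.8 ± 0.341 to 12.9 ± 0.763 FPKM). CYP4B1, a fatty acid hydroxylase, had 12.1, 11.9, 11.5 and 11.2 FPKM in controls and 0.688, 0.836, 0.843 and 0.926 FPKM with gemcitabine, a fall of 14.2-fold. Of 15 aldehyde dehydrogenases chosen for the count, which are not the whole family, all were tested, with 10 lower and 3 higher. ALDH1A1, which makes retinoic acid, fell 7.15-fold (from 20.6 ± 0.582 to 2.89 ± 0.204 FPKM), ALDH2, which clears acetaldehyde, 4.56-fold (from 5.84 ± 0.532 to 1.28 ± 0.134 FPKM) and ALDH3B1 3.53-fold (from 11.4 ± 0.166 to 3.24 ± 0.378 FPKM). GSTA1, a glutathione transferase, fell from 403 reads over the 4 controls to 25 reads, and NQO1, a quinone reductase, rose 2.35-fold (from 47.7 ± 3.29 to 112 ± 4.75 FPKM).

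Among genes of metal ion handling 26 of 55 were higher and 17 lower. Metallothioneins, the small cysteine-rich proteins that bind zinc and copper, lie in a row on chromosome 16 (56589074 to 56684196), and all 7 tested members of 9 were higher. MT2A, the most abundant of them, had 85.1, 95.7, 73.3 and 91.2 FPKM in controls and 359, 399, 408 and 436 FPKM with gemcitabine, a rise of 4.64-fold (log2 change 2.21 ± 0.0866 SE, limma adjusted p = 1.1e-08). MT1G had 0.762, 1.69, 1.23 and 1 FPKM in controls and 16.6, 19.2, 16.5 and 18.99 FPKM with gemcitabine, a rise of 15.2-fold. MT1X had the smallest rise, 1.37-fold (from 7.21 ± 1.05 to 9.86 ± 0.639 FPKM). Between these lay MT1E (3.14-fold), MT1M (3.44-fold) and MT1F (2.46-fold), and MT1H went from 7 reads over 4 controls to 297. These genes are close copies, so reads may be divided among them with error. SLC40A1, ferroportin, which exports iron, fell 4.05-fold (from 13.04 ± 0.246 to 3.22 ± 0.354 FPKM).

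Metallothionein promoters are known to carry metal response elements, bound by the zinc sensor MTF1. The 250 bases before the RefSeq start (GRCh38.p14) were searched on both strands for the element's core, written TGCACNC or TGCGCNC, with overlaps allowed. Promoters of 3 of the 9 genes were found in the table and are shown, 5′ to 3′, because they set the most abundant member, MT2A, beside the one with the smallest rise, MT1X, and MT1H, with few reads in controls. Matches are in capitals.
MT2A (chr16:56608334-56608583, plus strand): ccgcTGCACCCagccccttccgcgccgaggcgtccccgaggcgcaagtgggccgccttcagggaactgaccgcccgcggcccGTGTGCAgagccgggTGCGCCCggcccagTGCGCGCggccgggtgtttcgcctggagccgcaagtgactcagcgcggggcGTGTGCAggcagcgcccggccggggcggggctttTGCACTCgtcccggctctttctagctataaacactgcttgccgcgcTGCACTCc
MT1X (chr16:56682220-56682469, plus strand): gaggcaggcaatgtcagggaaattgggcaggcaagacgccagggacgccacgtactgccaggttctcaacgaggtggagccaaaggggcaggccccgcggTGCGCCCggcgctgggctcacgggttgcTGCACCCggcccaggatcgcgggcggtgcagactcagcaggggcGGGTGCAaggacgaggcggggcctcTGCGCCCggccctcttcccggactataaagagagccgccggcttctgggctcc
MT1H (chr16:56669564-56669813, plus strand): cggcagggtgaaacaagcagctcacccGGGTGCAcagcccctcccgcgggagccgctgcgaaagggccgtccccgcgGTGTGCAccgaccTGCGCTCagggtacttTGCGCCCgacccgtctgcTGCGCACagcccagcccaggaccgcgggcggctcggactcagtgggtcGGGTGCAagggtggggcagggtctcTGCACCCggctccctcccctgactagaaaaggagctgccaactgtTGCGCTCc
There were 7 matches in MT2A, 4 in MT1X and 8 in MT1H. At least 4 were found in 0.370% of 35116 promoters and at least 1 in 24.8%. The 3 genes are close copies, so they are not 3 independent cases beside these shares. A match describes letters, and neither binding nor metal levels were measured here.

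Of 92 lysosomal genes 47 were lower and 24 higher, with a median log2 change of -0.16. Of 13 cathepsins chosen for the count, which are not the whole family, 11 were tested, with 7 lower and 3 higher. CTSH, an aminopeptidase, had 149.6, 169, 149 and 154 FPKM in controls and 59.5, 59.4, 62.5 and 68.4 FPKM with gemcitabine, a fall of 2.49-fold. CTSD, the main aspartic protease, fell 1.99-fold (from 264 ± 29.8 to 133 ± 9.44 FPKM) and CTSF 4.05-fold (from 7.35 ± 0.601 to 1.81 ± 0.282 FPKM). FUCA1, which removes fucose, fell 2.29-fold (from 127 ± 5.64 to 55.7 ± 1.26 FPKM). GLA, the galactosidase lost in Fabry disease, rose 2.04-fold (from 12.6 ± 0.719 to 25.6 ± 1.296 FPKM). Of 36 sphingolipid genes 19 were lower and 9 higher.

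**Figure D4:**
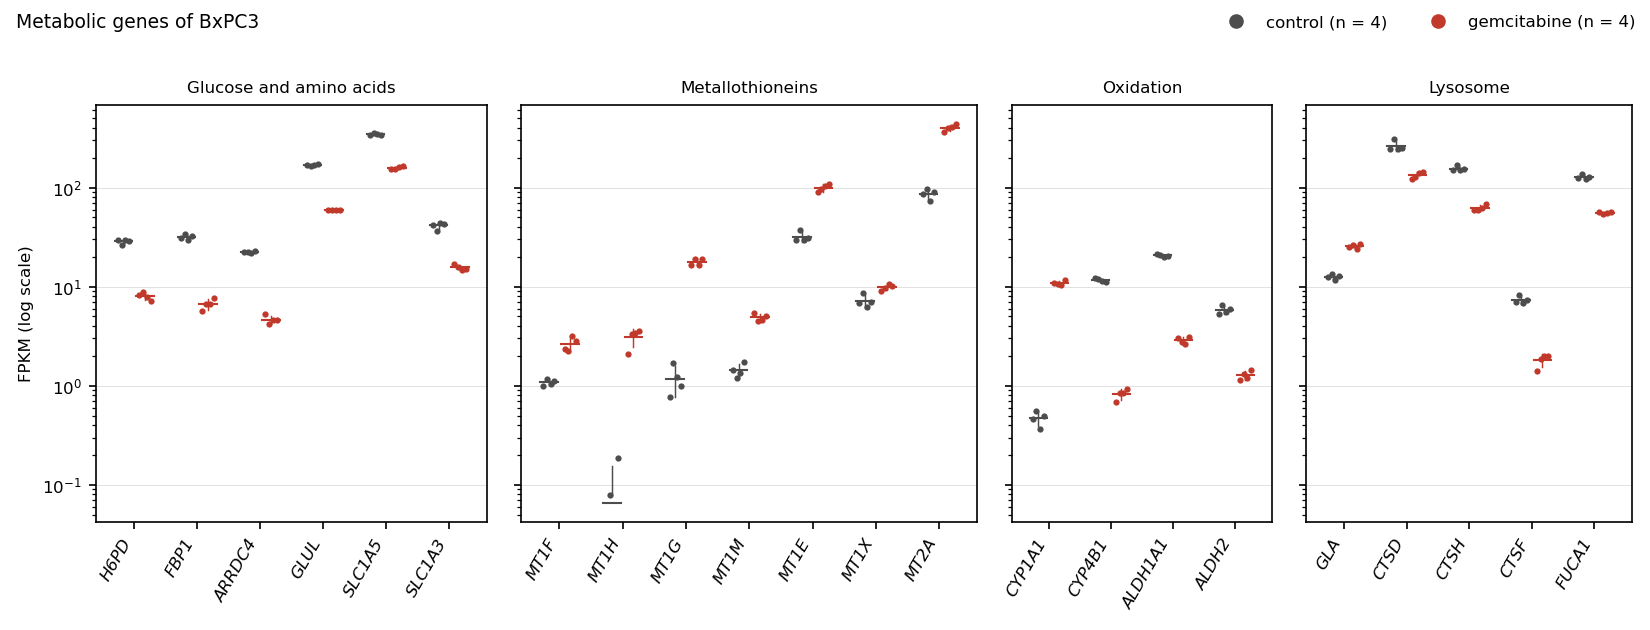
FPKM on a log axis of 22 metabolic genes in 4 control (grey) and 4 gemcitabine (red) libraries, with the mean as a line and SD as a vertical bar; a library at 0 FPKM is not drawn on the log axis, which concerns MT1H in control replicates 1 and 3. H6PD, FBP1 and ARRDC4 lie below their controls, all 7 metallothioneins lie above their controls, and the cytochrome genes CYP1A1 and CYP4B1 exchange places.

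Transcription factors were more often lower. Of 299 tested factors in 9 lists (499 listed), 162 were lower (54.2%) and 76 higher (25.4%), and of 835 tested genes that the deposited table assigns to any transcription factor family, 403 were lower (48.3%) and 197 higher (23.6%), beside 36.1% and 37.3% of all genes. The table's C2H2 zinc finger family had 178 of 341 lower and 53 higher. Nuclear receptors were lower for 18 of 25 and higher for 2, homeobox factors lower for 35 of 56 and higher for 11, and forkhead factors lower for 12 of 21 and higher for 4. The table's E2F family, by contrast, had 8 of 9 higher and 1 lower.

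In the list of bZIP and stress factors 29 of 48 were lower and 10 higher, with a median log2 change of -0.32. FOSL1, the AP-1 subunit FRA1 of invasive tumours (ENSG00000175592, chromosome 11, 65892049 to 65900573), was the 1 member higher by a log2 change of at least 1. By as much 8 members were lower. FOSL1 had 25.2, 22.9, 27.5 and 24.4 FPKM in controls and 119, 129, 129 and 128 FPKM with gemcitabine. It rose 5.05-fold (log2 change 2.29 ± 0.0553 SE, limma adjusted p = 5.6e-10). DBP, TEF and NFIL3, which read the same DNA element in the output of the circadian clock, all fell. DBP had 26.4, 32.3, 27.02 and 26.5 FPKM in controls, highest in replicate 2, and 5.54, 5.45, 6.75 and 6.13 FPKM with gemcitabine, a fall of 4.71-fold. TEF fell 2.68-fold (from 11.2 ± 0.411 to 4.17 ± 0.104 FPKM) and the repressor NFIL3 1.62-fold (from 10.4 ± 0.648 to 6.43 ± 0.174 FPKM). The clock repressors BHLHE40 and BHLHE41 fell 1.91-fold (from 87.9 ± 1.62 to 46.05 ± 0.799 FPKM) and 3.07-fold (from 14.7 ± 0.3999 to 4.79 ± 0.283 FPKM). CEBPA and CEBPB, factors of differentiation and inflammation, fell 2.84-fold (from 25.8 ± 0.631 to 9.09 ± 0.572 FPKM) and 2.21-fold (from 344 ± 33.5 to 155 ± 11.4 FPKM), and CREB3L1, a membrane-bound factor of the secretory pathway, fell 3.69-fold (from 18.7 ± 0.573 to 5.06 ± 0.266 FPKM).

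Of 47 factors of the SOX, GATA, RUNX, TEAD, SMAD, TFAP2, GRHL and EMT groups 22 were lower and 16 higher. SOX9, the factor of pancreatic duct and progenitor cells, and SOX2, the factor of stem cells and squamous epithelia, moved in opposite directions. SOX9 had 2.32, 2.65, 2.64 and 2.83 FPKM in controls and 12.8, 13.01, 12.7 and 11.5 FPKM with gemcitabine, a rise of 4.79-fold (limma adjusted p = 1.5e-09). SOX2 had 28.6, 27.6, 29.95 and 27.5 FPKM in controls and 6.39, 6.55, 6.92 and 6.46 FPKM with gemcitabine, a fall of 4.32-fold (limma adjusted p = 2.2e-10). In neither gene did the groups overlap. TEAD4, the DNA-binding partner of YAP, rose 2.22-fold (from 16.9 ± 0.716 to 37.6 ± 1.88 FPKM), and GATA3 fell 3.31-fold (from 12.5 ± 0.921 to 3.76 ± 0.272 FPKM). The T-box factor TBX6 fell 3.62-fold (from 38.8 ± 1.39 to 10.7 ± 1.13 FPKM).

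Among the 11 homeobox factors that were higher were MSX1, which rose 2.92-fold (from 6.11 ± 0.251 to 17.9 ± 2.14 FPKM), and PRRX2, which rose 3.48-fold (from 1.48 ± 0.141 to 5.16 ± 0.258 FPKM), both known from limb and face development. Among nuclear receptors VDR, the vitamin D receptor, rose 2.26-fold (from 5.22 ± 0.4896 to 11.8 ± 0.587 FPKM), while NR1H3, the sterol sensor LXR-alpha, fell 3.84-fold (from 3.58 ± 0.403 to 0.931 ± 0.158 FPKM). MYCL, a relative of MYC, had 4.81, 4.78, 4.87 and 5.35 FPKM in controls and 1.14, 0.875, 1.07 and 0.9801 FPKM with gemcitabine, a fall of 4.88-fold. KLF5, a factor of epithelial growth, fell 1.88-fold (from 165 ± 8.21 to 87.5 ± 4.66 FPKM), and ZBED2, a zinc finger repressor, rose 15.6-fold (from 0.283 ± 0.0745 to 4.41 ± 0.454 FPKM).

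Long non-coding RNAs were also more often lower: of 693 tested genes with a long non-coding biotype in the deposited table (14959 in all), 296 were lower (42.7%) and 170 higher (24.5%), with a median log2 change of -0.13. Passing the filter fixed the direction of 114 of the 693, with 48 long intergenic and 50 antisense RNAs among them. Long intergenic RNAs alone were lower for 138 and higher for 58 of 276. H19, the imprinted RNA that hosts miR-675 (ENSG00000130600, chromosome 11, 1995176 to 2001470), had 12.2, 15.6, 11.7 and 12.5 FPKM in controls and 0.348, 0.324, 0.272 and 1.99 FPKM with gemcitabine. Treated replicate 4 stood far above the other treated libraries but below every control, and H19 fell 17.7-fold (log2 change -3.11 ± 0.2697 SE, limma adjusted p = 1.1e-05). Without that library the fall in mean FPKM was 41.4-fold. UCA1, a long RNA first found in bladder cancer, had 0.387, 0.299, 0.443 and 0.419 FPKM in controls and 3.84, 3.69, 3.399 and 3.48 FPKM with gemcitabine, a rise of 9.31-fold. NORAD, which holds PUMILIO proteins and is known as a guard of chromosome number, fell 1.77-fold (from 128 ± 4.94 to 72.2 ± 4.64 FPKM), and TP53TG1 fell 3.77-fold (from 13.3 ± 2.01 to 3.52 ± 0.187 FPKM). SFTA1P rose 3.61-fold (from 2.69 ± 0.505 to 9.71 ± 1.05 FPKM). A pair of RNAs known only by clone names was among the largest rises, AL161431.1 with 4.93-fold (from 4.21 ± 0.103 to 20.8 ± 1.01 FPKM) and AC097451.1 with 24 reads over 4 controls and 705 over 4 treated libraries.

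Host genes of small nucleolar RNAs split, with 9 of 18 higher and 6 lower. Among the lower ones GAS5 had 35.6, 42.9, 34.4 and 35.4 FPKM in controls, highest in replicate 2, and 14.9, 16.3, 17.5 and 17.4 FPKM with gemcitabine, a fall of 2.24-fold. SNHG5 fell 1.903-fold (from 35.1 ± 3.56 to 18.4 ± 1.42 FPKM) and ZFAS1 1.79-fold (from 25.9 ± 3.998 to 14.4 ± 1.45 FPKM). SNHG12 rose 2.23-fold (from 2.96 ± 0.272 to 6.61 ± 0.4297 FPKM) and SNHG19 1.97-fold (from 9.57 ± 2.7 to 18.8 ± 1.396 FPKM), with control replicate 4 the highest control of SNHG19. Of 27 small nucleolar RNA genes themselves, which poly-A selection captures poorly, 14 were higher and 0 lower by limma, with a median of 18 reads over 4 controls and 46 over 4 treated libraries. At an unadjusted p under 0.05 these counts were 15 and 0, and limma-voom on the reads called 12 higher and 0 lower.

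Of 11 tested microRNA host genes 6 were lower and 2 higher. MIR205HG, host of the epithelial miR-205, had 65.98, 65.8, 64.04 and 62.5 FPKM in controls and 26.3, 28.4, 27.1 and 29.1 FPKM with gemcitabine, a fall of 2.33-fold, and MIR210HG, host of the hypoxia-induced miR-210, fell 4.82-fold (from 3.303 ± 0.1698 to 0.686 ± 0.142 FPKM). Reads on microRNA precursors in such libraries stem from the primary transcripts, since mature microRNAs have no poly-A tail. The miR-200 family, known to hold epithelial cells in their state by repressing ZEB factors, has 5 members at 2 loci, whose mature sequences from RefSeq (all 5 matched) are shown in RNA letters with the seed, bases 2 to 8, in capitals, because they fall into 2 seed groups across the loci.
miR-200b-3p: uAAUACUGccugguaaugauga
miR-200c-3p: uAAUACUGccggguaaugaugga
miR-429: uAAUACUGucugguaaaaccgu
miR-200a-3p: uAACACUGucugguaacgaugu
miR-141-3p: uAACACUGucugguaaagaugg
The first 3 share the seed AAUACUG and the other 2 the seed AACACUG. At the locus on chromosome 1 (1167104 to 1169087) all 3 precursors were lower. MIR200B had 19.9, 23.98, 30.04 and 29.6 FPKM in controls and 10.9, 13.5, 14.9 and 9.83 FPKM with gemcitabine (330 and 154 reads), a fall of 2.11-fold (limma adjusted p = 0.00023). MIR429 fell 1.43-fold (462 and 324 reads, limma adjusted p = 0.0021). MIR200A fell 1.67-fold, but treated replicate 1 at 26.2 FPKM lay among its controls, and the call was lost without treated replicate 4 (limma adjusted p of 0.0174 with all libraries and 0.0506 without it). At the locus on chromosome 12, MIR200C fell with few reads (39 and 13, limma adjusted p = 0.0054), and MIR141 did not pass (27 and 14 reads, limma adjusted p = 0.06).

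Of 302 tested antisense RNAs 83 were higher and 109 lower. For 111 antisense or divergent RNAs the partner gene was tested too, and 66 pairs had both genes past the threshold. In 46 of these both moved the same way, 30 lower and 16 higher, and in 20 they moved in opposite directions. The share that pairs of unrelated genes would give was not computed, and antisense RNAs were more often lower as a class. The count of 46 thus does not by itself show a link between partners. MGAT3, which adds the bisecting sugar of N-glycans, had 14.7, 14.2, 13.98 and 14.8 FPKM in controls and 1.704, 1.64, 1.77 and 1.59 FPKM with gemcitabine, a fall of 8.59-fold, and MGAT3-AS1 fell 3.502-fold (from 2.58 ± 0.3296 to 0.737 ± 0.324 FPKM). UNC5B-AS1 fell 6.64-fold (from 12.9 ± 3.11 to 1.94 ± 0.413 FPKM) beside the netrin receptor UNC5B, which fell 1.76-fold (from 11.1 ± 0.452 to 6.32 ± 0.315 FPKM). TNFRSF14-AS1 fell 4.88-fold next to TNFRSF14, CEBPA-DT 3.98-fold next to CEBPA, and FEZF1-AS1 3.77-fold next to the forebrain factor FEZF1 (4.87-fold, but a log2 change of -1.04 with the pseudocount). The pairs named here all come from the 30 with both genes lower. In 80 of the 111 pairs the gene bodies overlap, and no source used here says whether reads were counted by strand. The RNAs of an overlapping pair cannot be told apart over the shared stretch. CEBPA-DT and CEBPA do not overlap.

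**Figure D5:**
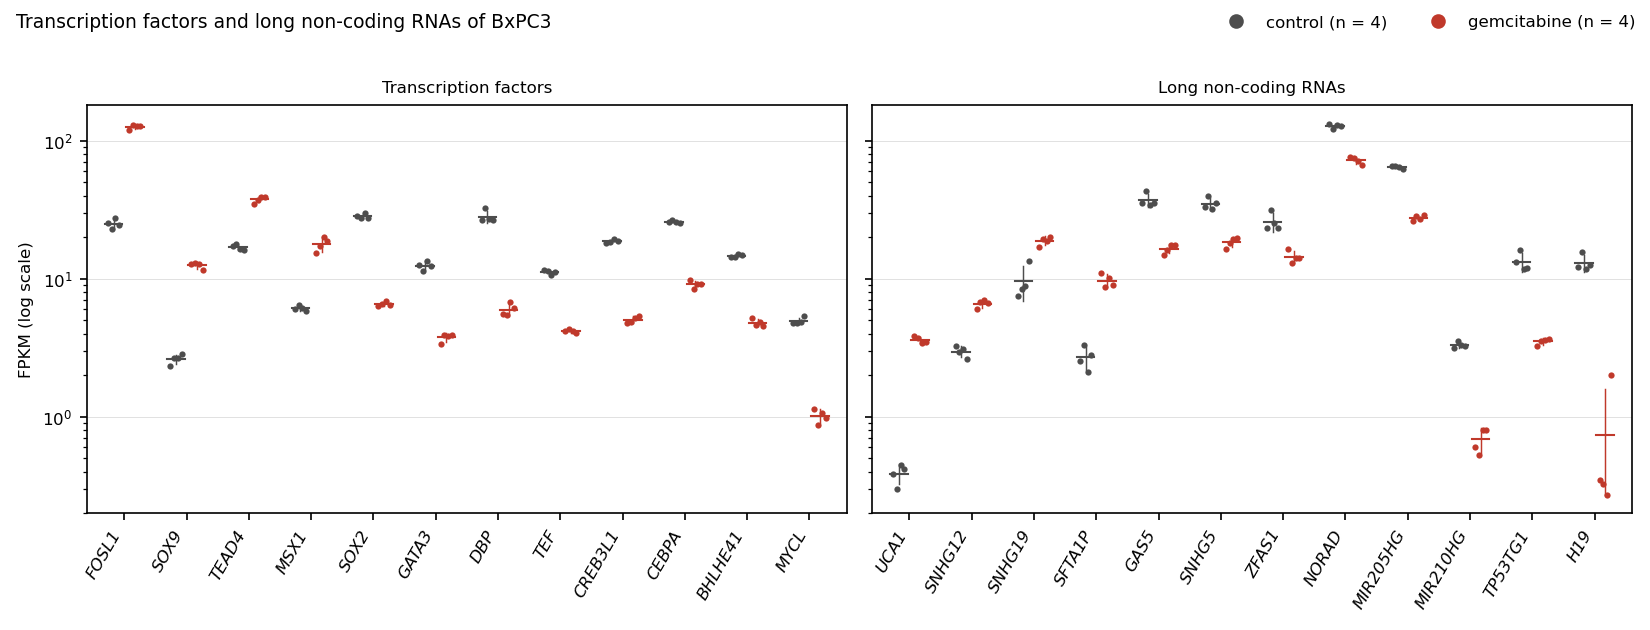
FPKM on a log axis of 12 transcription factors and 12 long non-coding RNAs in 4 control (grey) and 4 gemcitabine (red) libraries, with the mean as a line and SD as a vertical bar (cut where it would reach 0). FOSL1, SOX9, TEAD4 and MSX1 lie above their controls and the other 8 factors below; H19 in the 4 treated libraries lies between 0.272 and 1.99 FPKM, with 1 library apart from the other 3.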

How the data were processed

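The authors deposited 1 table for BxPC3 with an FPKM value per gene and library and with gene lengths in bases, per the file headers. The tools CASAVA and HISAT2 come from the submitters' processing notes, which give no version. Counting program and strand setting: not given in the sources used here. The notes name the build mm10, yet 58724 of 58735 deposited genes have the start and end of human GENCODE 29 genes, so positions are given as GRCh38. Multiplying FPKM by length gave whole numbers of a fixed step for each library in 100% of values (tolerance 0.02 reads), hence reads and depth; the sum of reads was 0.963 to 1.05 of the total behind that step, so the values may already hold a scaling factor.

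Genes with at least 1 FPKM in at least 4 of 8 libraries were tested with limma 3.58.1 in R 4.3.3 (trend and robust) on log2(FPKM + 1), 2-sided, with Benjamini-Hochberg adjustment over all genes and a threshold of 0.05. Folds are ratios of mean FPKM, errors are SD with n = 4 unless SE is named, and a floor of 3 reads allows for counting error alone, as PCR copies are not independent. Tables and figures used pandas 2.3.3 and matplotlib 3.10.9. Tested on simulated data with changes in 200 genes, the procedure found 48% of the 1.25-fold changes, 92% of the 1.5-fold, 94% of the 2-fold and 100% of the 4-fold ones. Of 12015 unchanged genes 4 were called. The simulation changed far fewer genes than the 8964 called in the data. It also drew each gene independently, without a shift of a whole library such as that of control replicate 2. Its shares are thus not error rates of the calls reported here.

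The 45 gene lists and the named genes were chosen with earlier results of these data known. The rule for named genes took, per class, the 12 largest rises and falls past a log2 change of 1 without overlap of groups, per list the 4 smallest p-values and any member of at least 100 FPKM, and the 15 largest rises and falls of other coding genes. Of 200 genes named, 55 fall outside the rule, mostly relatives or partners of its genes, and were chosen after their values were seen; some genes within the rule are not reported here. Lists have no set test. Alternatives were other pseudocounts, filters, scalings and tools, the replicate number as a block and each library left out. Replicate numbers did not pair the libraries: correlations of same-numbered deviations were 0.181, -0.333, -0.0921 and -0.102. Replicates all differed beyond counting noise (lowest chi-square over its degrees of freedom 2.07).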

Additional observations from a re-analysis of the deposited data

Results flagged for a closer look

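For each named gene and group it was asked whether 1 of the 4 libraries lay far from the other 3 by Dixon's criterion at the 95% level for the gap over the whole range. This held for 43 of 400 sets of 4 values, where chance gives about 1 in 20 groups, and 31 of them concerned control replicate 2. Control replicate 2 was the highest of its group for CEBPA (26.8 FPKM, the others 25.4 to 25.6), CEBPB (394 FPKM, the others 326 to 328), CFD (97.7 FPKM, the others 75.5 to 76.2), CSF3 (1.21 FPKM, the others 0.934 to 0.968), CST3 (398 FPKM, the others 324 to 336) and CTSD (308 FPKM, the others 246 to 253). It was also highest for CXCL1 (170.5 FPKM, the others 148 to 149), DBP (32.4 FPKM, the others 26.4 to 27.02), GAS5 (42.9 FPKM, the others 34.4 to 35.6), GPC3 (22.96 FPKM, the others 19.6 to 20.1), GRN (245 FPKM, the others 225 to 228) and IGFBP2 (160.3 FPKM, the others 128 to 130.0). The same held for LTBP4 (92.4 FPKM, the others 85.9 to 86.2), MDK (355 FPKM, the others 306 to 313), MIR200C (7.63 FPKM, the others 3.15 to 3.16), MSLN (238 FPKM, the others 205 to 208), MSMB (30.1 FPKM, the others 22.3 to 23.02) and SREBF1 (154 FPKM, the others 139.7 to 140.4). To these add TNFRSF14 (30.9 FPKM, the others 26.3 to 26.9), TNFRSF18 (6.904 FPKM, the others 4.84 to 5.19), TXNIP (806 FPKM, the others 777 to 777), UPK3B (668 FPKM, the others 579 to 594), UPP1 (20.4 FPKM, the others 16.4 to 16.6) and WNT4 (14.96 FPKM, the others 13.6 to 13.8). Control replicate 2 was the lowest of its group for CDCP1 (17.3 FPKM, the others 20.6 to 21.2), ITGA5 (5.12 FPKM, the others 6.08 to 6.21), KLF5 (153 FPKM, the others 169 to 169), MET (61.9 FPKM, the others 70.6 to 72.3), MIR200A (23.1 FPKM, the others 27.4 to 27.8) and SCD (273 FPKM, the others 313 to 317). It was also lowest for THBS1 (12.2 FPKM, the others 13.01 to 13.2). Control replicate 1 was the lowest of its group for AL161431.1 (4.06 FPKM, the others 4.26 to 4.27). Control replicate 3 was the highest of its group for HMGCS1 (12.3 FPKM, the others 11.7 to 11.8). Control replicate 4 was the highest of its group for AC097451.1 (0.393 FPKM, the others 0.2099 to 0.225) and MYCL (5.35 FPKM, the others 4.78 to 4.87). Gemcitabine replicate 1 was the highest of its group for AC097451.1 (8.98 FPKM, the others 7.34 to 7.57), CD274 (2.58 FPKM, the others 1.93 to 1.99) and HPGD (2.58 FPKM, the others 2.11 to 2.15). Gemcitabine replicate 1 was the lowest of its group for FOSL1 (119 FPKM, the others 128 to 129), GATA3 (3.36 FPKM, the others 3.84 to 3.94) and TRPV4 (3.21 FPKM, the others 3.86 to 3.91). Gemcitabine replicate 4 was the highest of its group for CXCL17 (23.03 FPKM, the others 19.9 to 20.1) and H19 (1.995 FPKM, the others 0.272 to 0.348). In all these genes but MET the call held without that library. MET did not pass with or without it. What set these libraries apart was not tested.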

How the results depend on the processing

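With each library left out in turn, genes higher numbered 4343 to 4676 and genes lower 4200 to 4441; at a log2 change of at least 1 in size they were 524 to 537 and 476 to 522. A filter of at least 5 FPKM, which leaves 7277 genes, gave 3020 higher and 2660 lower, of them 354 and 368 at a log2 change of at least 1. A pseudocount of 0.1 in place of 1 gave 806 and 825 such strong changes, since the pseudocount of 1 shrinks changes of low genes. Limma-voom on the recovered reads gave 843 and 889; the cause was not tested. With the replicate number as a block 4347 genes were higher and 4206 lower, although the numbers do not pair the libraries; the block changed no call of a named gene. TPM scaling moved the median of all genes from 0.00443 to 0.0753 (log2) and gave 5206 higher and 3692 lower. Under it the list medians of cytokine receptors, TNF receptors, G protein-coupled receptors, integrins, mitochondrial mRNAs, fatty acid synthesis, xenobiotic metabolism and amino acid transporters, all near 0, turned positive. No filter (5468 higher and 5245 lower of 36939), median-ratio scaling, protein-coding genes alone and limma without trend and robust kept counts within 1.5 times. Of 200 named genes over 17 settings, calls changed in 2, MIR200A as given above and MIR141, which passed without trend and robust (adjusted p = 0.0457), without gemcitabine replicate 3 (0.0293) and without gemcitabine replicate 4 (0.0235). Of 1530 counts over lists 45 moved by over 1.5 times, 33 of them under the filter of 5 FPKM, 6 where non-coding genes were left out, 5 under TPM scaling and 1, the nuclear subunits of oxidative phosphorylation, without control replicate 2. The SOX to EMT list had 14 members lower under TPM scaling in place of 22, the mitochondrial mRNAs 5 higher in place of 3 and the prostaglandin list 5 higher in place of 3. Genes under about 0.1 FPKM are limited by depth.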
